A study of Mus musculus with 2 samples.

Results

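The Rtl1 antisense miRNAs are 8 microRNA (miRNA) genes of the imprinted Dlk1-Dio3 region on mouse chromosome 12, at and beside the gene Rtl1. They were chosen by name and position, as the miRNA genes called Mir337, Mir540, Mir665, Mir431, Mir433, Mir127, Mir434 and Mir136 in GENCODE release M21. Earlier results of these data were known when the choice was made. All 8 were found among the 2202 miRNA genes of the deposited tables. The tables describe hippocampus of wild-type mice, strain B6NCrl (C57BL/6), adult and 6 months old, as 1 group of 2 miRNA sequencing libraries with no treatment and no second genotype. The labels describe the tissue as male while their sex field gives no value, and they name a hippocampal layer without saying which. They number the libraries as biological replicates 2 and 1 but give both the same donor identifier. The spread between the libraries may therefore be technical.

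A miRNA is cut from a hairpin in a longer transcript, and either arm of the hairpin (5p or 3p) can become the mature strand. Bases 2 to 8 of the mature strand, the seed, pair with target mRNAs. In the Dlk1-Dio3 region the noncoding RNAs and miRNAs are expressed from the maternal chromosome, and the protein-coding genes, Rtl1 among them, from the paternal one. Rtl1 is a gene derived from a retrotransposon that is needed for the mouse placenta. Some of its antisense miRNAs are known to guide cleavage of the Rtl1 mRNA in mouse embryos, since their sequence is complementary to it throughout.

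The 8 hairpins lay on the plus strand within 9.6 kb. Mir337 (chr12:109585789-109585885), Mir540 (chr12:109586080-109586146) and Mir665 (chr12:109586314-109586407) formed a first set of 0.619 kb. It ended 2.785 kb before the annotated Rtl1 gene (chr12:109589193-109600330, minus strand). Mir431 (chr12:109590447-109590537), Mir433 (chr12:109591715-109591838), Mir127 (chr12:109592846-109592915), Mir434 (chr12:109594506-109594599) and Mir136 (chr12:109595327-109595388) formed a second set of 4.942 kb. All 5 of these lay within the coding sequence of Rtl1 on the other strand. The name "Rtl1 antisense" therefore fits 5 of the 8 by overlap, and the other 3 stand beside Rtl1. No annotated gene on the plus strand contained any of the 8 in M21. Positions are those of mm10.

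The mature arms of the second set are shown because each of them is the exact complement of a stretch of Rtl1. They are given 5′ to 3′ with the seed in capitals, from RefSeq (GRCm38.p6), which placed all 8 hairpins at the same positions and with the same sequences as GENCODE.
miR-431-5p: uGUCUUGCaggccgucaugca
miR-431-3p: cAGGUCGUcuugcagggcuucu
miR-433-5p: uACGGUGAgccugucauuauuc
miR-433-3p: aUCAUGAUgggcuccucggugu
miR-127-5p: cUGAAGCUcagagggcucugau
miR-127-3p: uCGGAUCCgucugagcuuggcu
miR-434-5p: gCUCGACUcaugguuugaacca
miR-434-3p: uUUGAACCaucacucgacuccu
miR-136-5p: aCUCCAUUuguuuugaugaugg
miR-136-3p: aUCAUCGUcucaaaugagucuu

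The 16 arms of the 8 genes had 16 different seeds, so no 2 of them formed a seed family. For 15 arms no other mature miRNA among 1738 RefSeq entries had the same seed. The exception was miR-540-3p, whose seed is that of miR-6915-5p, and Mir6915 had 5.16 and 3.30 CPM in replicates 2 and 1. Within a hairpin, the arms of Mir431 shared a stretch of 10 bases (gucuugcagg) and those of Mir434 a stretch of 9 bases (uuugaacca), against 4 to 6 bases in the other 6 genes. No hairpin shared 20 bases in a row with another annotated miRNA hairpin that does not overlap it, and no arm had an exact copy in another annotated transcript.

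The complement of all 10 arms of the second set was found in the single annotated Rtl1 transcript, in each case within its coding sequence of 5232 bases. This follows from the position of their hairpins opposite that sequence. No other protein-coding gene of the annotation held the exact complement of any arm of the 8 genes. The sites of miR-127 and miR-136 show the arrangement, on the Rtl1 strand with the seed match in capitals. The miR-127-3p site covers coding bases 2495 to 2516 (chr12:109592888-109592909) and the miR-136-5p site covers coding bases 52 to 73 (chr12:109595331-109595352).
miR-127-3p site: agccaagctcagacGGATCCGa
miR-136-5p site: ccatcatcaaaacaAATGGAGt

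The 6 arms of Mir337, Mir540 and Mir665 had no exact complement in Rtl1. A match of sequence describes complementarity only. Levels of Rtl1 mRNA were not measured here.

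The libraries held 5041568 counts on miRNA genes in replicate 2 and 4247092 in replicate 1, taken on the strand of the gene. These were 39.9% and 38.2% of all reads. Reads aligned to more than 1 place made up 45.7% and 43.8% of the reads and were in no gene's count. Levels are in CPM, the count divided by the library's total on miRNA genes and scaled to 1000000, with mean ± SD taken over n = 2 libraries. No scaling by length was applied, since a mature miRNA is read whole whatever the length of its hairpin. The relation of reads to molecules was not measured. The counts join both arms of a hairpin, so no level can be given to 1 arm. A count of 0 allows 3 counts, or 0.595 CPM in replicate 2 and 0.706 CPM in replicate 1, and intervals and limits cover counting error only. The tissue was checked on marker miRNAs. Of 11 neuronal markers 6 were detected. The 11 summed to 28706 and 46480.3 CPM in replicates 2 and 1, led by Mir132 (14605 and 32072 CPM). Mir124a-1, Mir124a-2 and Mir124a-3 had 0 to 8 counts each. Reads that align to more than 1 of these genes are in no gene's count, so these counts are no measure of miR-124 in the tissue. Muscle markers summed to 42.6 and 116 CPM, nearly all from Mir206, liver Mir122 to 42.4 and 31.8 CPM, and hindbrain and spinal cord markers to 35.7 and 19.5 CPM. Muscle Mir133a-1 and Mir1a-2, hindbrain Mir196a-1 and the pluripotent cell markers Mir302a, Mir302b and Mir290a had 0 counts.

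All 8 genes passed the detection minimum of 10 CPM in each library, against 302 of 2202 miRNA genes in all. In both libraries 4 of the 8 stood above 1000 CPM, against 86 of the 2202. The 8 were chosen with earlier results of these data known, so these counts describe the list and are not a test. Together the 8 took 6.34% of the counted reads in replicate 2, with an exact 95% interval of 6.32 to 6.36%. In replicate 1 they took 6.58% (6.55 to 6.60%), which gave a mean of 6.46% ± 0.167 (SD, n = 2). The 5 genes over Rtl1 held nearly all of this, with 6.13% and 6.39% of the counted reads in replicates 2 and 1. The 3 genes before Rtl1 held 0.210% and 0.190%. At the median of the 8, the level was 1018 and 949 CPM in replicates 2 and 1, and over all detected genes it was 276 and 238 CPM.

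**Figure D1:**
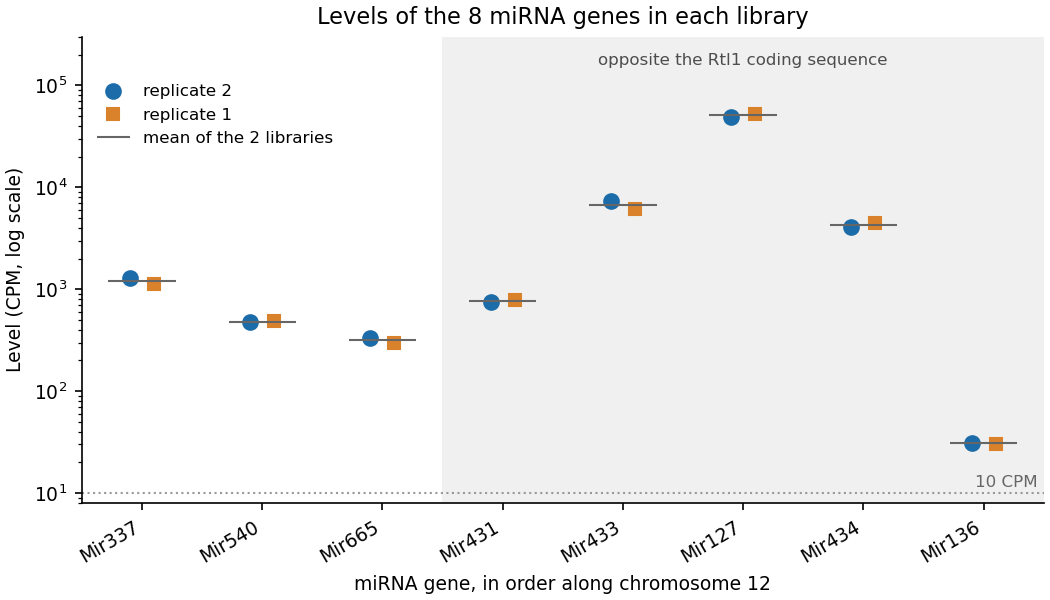
Levels in CPM, on a log scale, of the 8 miRNA genes in chromosome order, with 1 point per library (circles, replicate 2; squares, replicate 1) and a line at the mean of both. Mir127 is highest at 49033 and 52515 CPM in replicates 2 and 1 and Mir136 lowest at 30.9 and 30.6 CPM, and the points of the 2 libraries lie close together for every gene. The shaded genes lie opposite the Rtl1 coding sequence.

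Mir127 led the group. It is a gene whose loss in mice disturbs the placenta. It had 247203 counts in replicate 2 (49033 CPM) and 223036 in replicate 1 (52515 CPM), and its rank among all miRNA genes was 5 in both libraries. Reads aligned to more than 1 place are outside this ranking, so miRNAs with several gene copies may rank too low in it. Replicate 2 gave it 4.90% of the counted reads, with an exact 95% interval of 4.88 to 4.92%, and replicate 1 gave it 5.25% (5.23 to 5.27%). Among the 8 genes alone it made up 77.3% of the level in replicate 2 and 79.8% in replicate 1. The mean was 78.6% ± 1.78 (SD, n = 2). Without Mir127 the other 7 genes summed to 14383 and 13267 CPM in replicates 2 and 1.

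The neighbours of Mir127 on both sides came next. Mir433, whose transcript in mouse is known to overlap that of Mir127, had 37366 and 26058 counts in replicates 2 and 1, which is 7412 and 6135 CPM. It ranked 26 in replicate 2 and 33 in replicate 1. Mir434 had 20634 and 18767 counts (4093 and 4419 CPM) and ranked 42 and 41. These 3 adjacent genes stood above the other 5 in both libraries.

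The genes at the ends of the stretch over Rtl1 were lower. Mir431, which promotes axon regrowth in mouse sensory neurons, had 3747 and 3299 counts in replicates 2 and 1, or 743 and 777 CPM. Mir136, the last gene and the one nearest the start of the Rtl1 coding sequence, had 156 and 130 counts, or 30.9 and 30.6 CPM. Mir127 stood 1585-fold above Mir136 in replicate 2 and 1716-fold above it in replicate 1, and both hairpins lie on the same strand within 2.543 kb.

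The 3 genes before Rtl1 stood below Mir434 and above Mir136 in both libraries. Mir337 had 6514 and 4762 counts in replicates 2 and 1 (1292 and 1121 CPM). Mir540 had 2417 and 2059 counts (479 and 485 CPM). Mir665 had 1677 and 1269 counts (333 and 299 CPM). Their levels decreased in chromosome order in both libraries.

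The order of the 8 genes was the same in both libraries. It ran Mir127, Mir433, Mir434, Mir337, Mir431, Mir540, Mir665 and Mir136. The ranges over the 2 libraries overlapped in 0 of the 7 pairs of neighbours in this order. With 2 values per gene no exact test of such a pair can pass 0.05, so the order is a description. The steps were unequal. They were largest between Mir665 and Mir136 (10.8-fold in replicate 2, 9.76-fold in replicate 1) and between Mir127 and Mir433 (6.62-fold and 8.56-fold). Mir434 stood 3.17-fold and 3.94-fold above Mir337. The other 4 steps ranged from 1.39-fold to 1.81-fold.

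The miRNA genes most like each of the 8 were taken as the nearest in log2(CPM + 1) over the 2 libraries, among the 294 other detected genes. For Mir127 this was Mirlet7g (64237 and 75049 CPM in replicates 2 and 1), at a distance of 0.65 on the log2 scale. The other 7 had a gene within 0.14. They were Mir22 for Mir433 (6949 and 5798 CPM), Mir874 for Mir434 (3789.5 and 4201 CPM), Mir341 for Mir337 (1404 and 1071 CPM) and Mir532 for Mir431 (726 and 841 CPM). Mir7689 was nearest to Mir540 (511 and 473 CPM), Mir7080 to Mir665 (355 and 279 CPM) and Mir24-1 to Mir136 (30.0 and 31.1 CPM). Of these 8 nearest genes, Mir341 is the one on chromosome 12, in the same imprinted region. Likeness over 2 libraries of 1 tissue is likeness in level only. Reads aligned to more than 1 place are outside these levels, so a gene with further copies may stand too low. Besides Mir24-1 the annotation holds Mir24-2 (32.5 and 33.9 CPM in replicates 2 and 1).

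The 8 genes were then set beside the other miRNA genes of the region, taken by position as all 59 on the plus strand between Dlk1 and Dio3. The 8 held 52.5% of the level of the region in replicate 2 and 50.3% in replicate 1 (51.4% ± 1.503, SD, n = 2). The 38 genes from Mir379 to Mir410 held 33.8% and 35.1%, and the 13 remaining genes held 13.7% and 14.6%. Of the 38 genes 31 were detected, and of the 13 genes 7 were. Their median levels were 195 and 31.5 CPM in replicate 2, and 264 and 22.1 CPM in replicate 1. The share of the 8 rests on Mir127, since without it they held 11.9% and 10.2% of the level of the region in replicates 2 and 1. Multiply aligned reads were not counted, and 8 region genes share at least 20 bases in a row with a hairpin elsewhere. Mir487b and Mir411 are among them, and none of the Rtl1 antisense miRNAs is. The share of the Rtl1 antisense miRNAs may therefore be too high.

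Within the region the 8 genes took ranks 1, 5, 8, 16, 19, 23, 27 and 43 by mean level. Mir127 stood 3.71-fold in replicate 2 and 3.36-fold in replicate 1 above the second gene, Mir770 of the Meg3 transcript (13212 and 15646 CPM). Mir487b (7302 and 11482 CPM), Mir382 (7297 and 6715 CPM), Mir541 (6649 and 6506 CPM) and Mir411 (3421 and 6476 CPM) led the cluster from Mir379 to Mir410. The ranges of Mir433 and of Mir382 and Mir541 overlapped. After Mir770, the remaining 13 were led by Mir370 (1230.4 and 1691 CPM), Mir341 (1404 and 1071 CPM) and Mir673 (474 and 416 CPM).

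**Figure D2:**
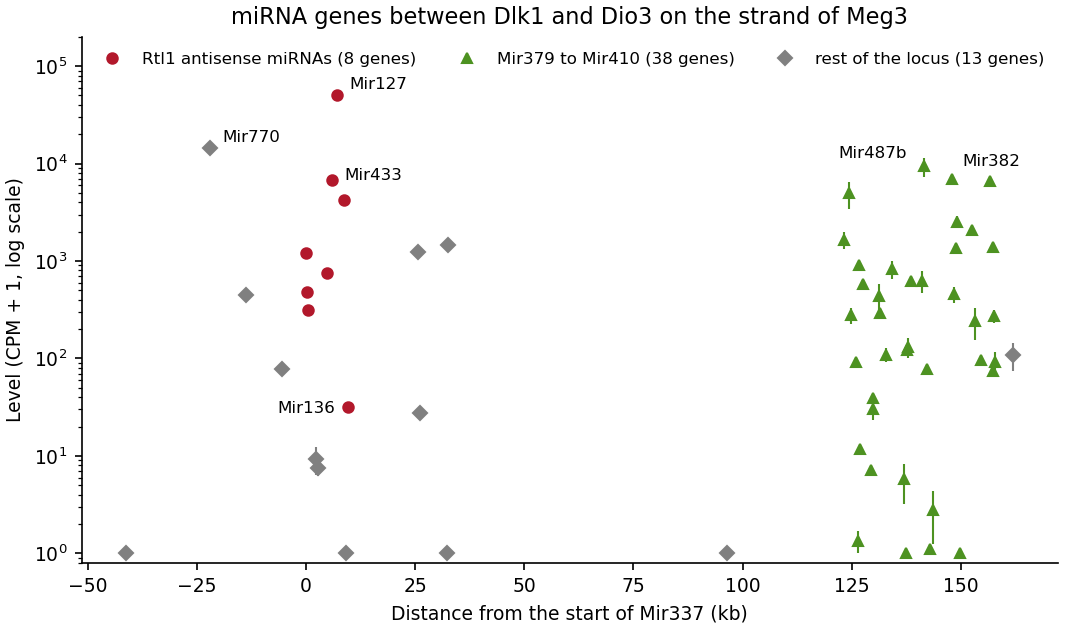
Mean level of each of the 59 miRNA genes of the region (CPM + 1, log scale) against its distance in kb from the start of Mir337, with vertical lines spanning the 2 libraries. Circles are the 8 Rtl1 antisense miRNAs, triangles the 38 genes from Mir379 to Mir410 and diamonds the other 13. Mir127 stands highest and Mir136 lowest of the 8.

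Other miRNA genes are annotated between the first and the last of the 8, namely Mir3070a, Mir3070b and Mir432, named for their position and after their values were seen. Mir3070a had 57 counts in replicate 2 and 23 in replicate 1, and Mir3070b had 26 and 33, all below the counts of Mir136. Each of their hairpins shares at least 20 bases in a row with 1 other hairpin, which none of the 8 genes' hairpins does, and multiply aligned reads were not counted. Mir432 had 0 counts in both libraries, which allows up to 0.595 and 0.706 CPM. The 9.6 kb thus held Mir432 with 0 counts between Mir434, at 4093 and 4419 CPM in replicates 2 and 1, and Mir136.

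The strand of the counts mattered for 2 of the 8 genes. Mir337 is overlapped on the minus strand by Mir3544 (chr12:109585813-109585873) and Mir136 by Mir3071 (chr12:109595318-109595397). In the deposited column without regard to strand, Mir337 and Mir136 had 0 counts in both libraries, against 6670 counts together in replicate 2 and 4892 in replicate 1 on their own strand. The other 6 genes had the same count in both columns. Mir3544 and Mir3071 also had 0 counts in the column without regard to strand. Reads that could belong to more than 1 gene stood apart there as ambiguous, 370808 in replicate 2 and 267469 in replicate 1. The 0 counts of Mir337 and Mir136 therefore do not mean a lack of reads. The overlapping arms are shown because they are nearly each other's complement.
miR-337-3p: uCAGCUCCuauaugaugccuuu
miR-3544-5p: aGAAAGGCaucauauaggagcug
miR-3071-3p: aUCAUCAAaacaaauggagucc

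The miR-3544-5p arm overlaps miR-337-3p by 21 bases, and miR-3071-3p overlaps miR-136-5p by 20 bases. Nearly all reads at these hairpins came from the plus strand. Mir3544 had 5 counts in replicate 2, beside 6514 for Mir337, which is 0.0767% of the reads of both (exact 95% interval 0.0249 to 0.179%). In replicate 1 it had 0 counts beside 4762, which allows up to 0.0630% by the limit of 3 counts and up to 0.0774% by the exact 95% interval. Mir3071, on the strand of Rtl1, had 0 counts in both libraries, beside 156 and 130 for Mir136. At this depth the limit of 3 counts allows a minus-strand share of up to 1.92% in replicate 2 and 2.31% in replicate 1. The exact 95% intervals reach 2.34% and 2.80%. The other 6 genes had 0 counts on the opposite strand in both libraries.

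**Figure D3:**
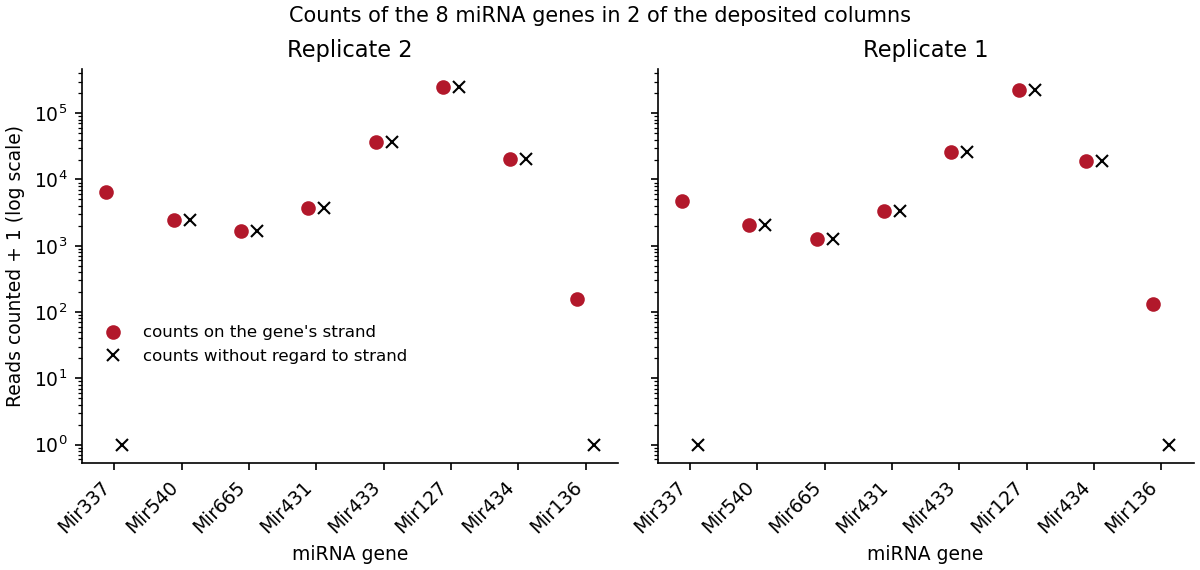
Reads counted plus 1, on a log scale, for each of the 8 genes in replicate 2 (left) and replicate 1 (right), on the strand of the gene (circles) and without regard to strand (crosses). The crosses of Mir337 and Mir136 lie at 0 counts, while the circles stand at 6514 and 156 counts in replicate 2 and at 4762 and 130 in replicate 1.

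The libraries were compared gene by gene by exact binomial tests (two-sided) over 522 miRNA genes, with Benjamini-Hochberg adjustment. These tests compare the reads of 2 libraries and not conditions. Adapters were trimmed after different protocol versions in the 2 libraries, per the labels, so trimming and replicate cannot be told apart. Of all genes tested 51.0% passed at 0.05, 28.2% higher and 22.8% lower in replicate 2. Of the 8 genes 5 passed, 3 higher and 2 lower in replicate 2. The background includes genes with as few as 10 counts, while each of the 8 had 286 or more over both libraries. Of the 302 detected genes 226 passed, and of 311 genes with 100 counts or more 240 did (77.2%). Both are larger shares than 5 of 8, which with so few genes is a description only. Mir433 was higher in replicate 2 (log2 ratio 0.27, exact 95% interval 0.25 to 0.30, adjusted p = 2.59e-121 by the binomial test). Mir337 was higher too (0.20, 0.15 to 0.26, adjusted p = 3.24e-13 by the exact test), as was Mir665 (0.15, 0.05 to 0.26, adjusted p = 0.00892 by the exact test). Mir127 was lower in replicate 2 (log2 ratio −0.10, −0.11 to −0.09, adjusted p = 7.87e-121 by the exact test), as was Mir434 (−0.11, −0.14 to −0.08, adjusted p = 1.21e-13 by the exact test).

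The remaining 3 genes did not pass. Mir431 had a log2 ratio of −0.06 (exact 95% interval −0.13 to 0.00) and Mir540 of −0.02 (−0.10 to 0.07). Mir136 had a log2 ratio of 0.01, with an interval of −0.33 to 0.36 that reflects its 286 counts over both libraries. Under TMM scaling (edgeR) or DESeq2 size factors, which move every ratio by −0.07 or −0.08, the split was 2 higher and 3 lower. Mir665 no longer passed under either, and Mir431 passed as lower under both.

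The differences were small beside those of other genes. The absolute log2 ratio of the 8 had a median of 0.10 and ranged from 0.01 to 0.27, and over all 302 detected genes the median was 0.36 with quartiles of 0.15 and 0.66. All 8 lay below that median and 5 below the lower quartile. Over the tested genes from Mir379 to Mir410 the median absolute log2 ratio was 0.36, and over the tested genes of the rest of the region 0.46. Genes differ in depth, so these medians describe the lists and are not a test. Among markers of other cell types, the choroid plexus markers Mir204 and Mir211 summed to 2784 and 7108 CPM in replicates 2 and 1. Nearly all of this came from Mir204 (2780 and 7102 CPM). The oligodendrocyte markers Mir219a-2 and Mir338 summed to 8777 and 5805 CPM. Endothelial Mir126a had 7027 and 5706 CPM. The microglia and leukocyte markers summed to 66.4 and 73.7 CPM, mostly from Mir155 (54.0 and 54.4 CPM). Their part in the differences of the 8 genes was not tested.

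**Figure D4:**
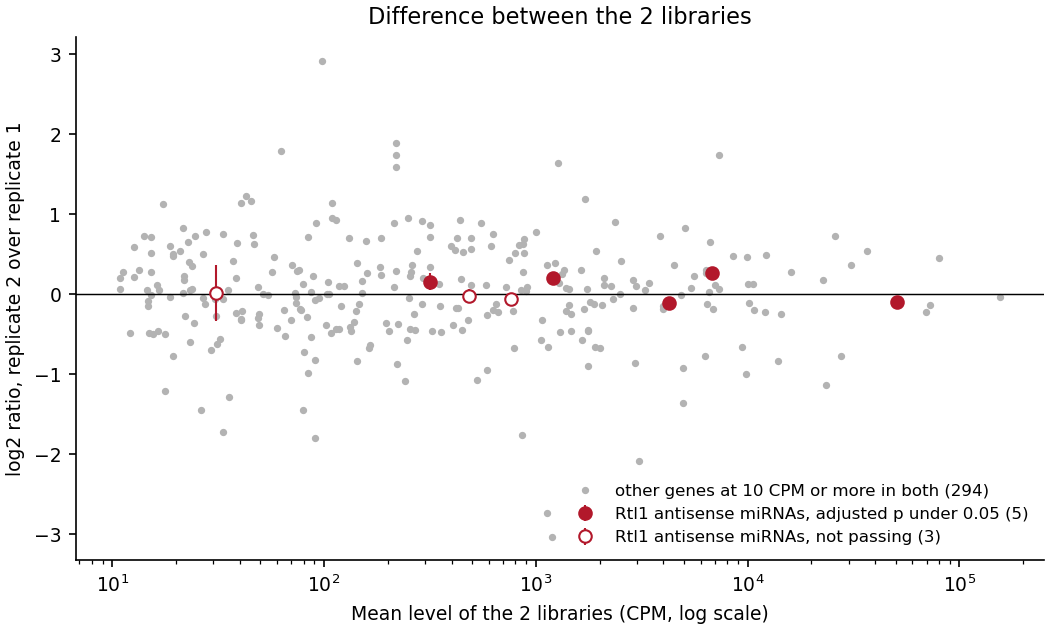
Log2 ratio of replicate 2 over replicate 1 against the mean level in CPM (log scale) for the 302 detected miRNA genes. The 8 Rtl1 antisense miRNAs are drawn in red with exact 95% intervals, filled where they passed the exact binomial test, and lie between −0.11 and 0.27, and grey points are the other 294 genes.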

How the data were processed

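miRNA sequencing libraries of total RNA (fragments under 30 bases, per the labels) from 2 hippocampus samples were used. The authors deposited raw read counts per miRNA gene, placed on mm10 with GENCODE M21, per the deposited file listing. Adapters were trimmed after different protocol versions in the 2 libraries, per the labels. What differs between the versions, the aligner and the counting program were not given in the sources used. Each table has 3 columns of counts. The column on the gene's strand was used, identified because 99.96% and 99.95% of the opposite-strand counts in replicates 2 and 1 could be matched to an overlapping gene on the other strand. Summary rows (unaligned, multiply aligned and outside genes) held 60.1% and 61.8% of reads and were left out of library sizes.

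CPM used the sum over all miRNA genes. Genes with 10 or more counts over both libraries were tested with an exact two-sided binomial test, adjusted over all 522 by Benjamini-Hochberg. With 1 group, the quasi-likelihood test of edgeR has no contrast. Log2 ratios have 0.5 counts added. Exact intervals are Clopper-Pearson at 95%. Procedures were tested on simulated data. Alternatives were the scaling (TMM, DESeq2 size factors), the count and CPM minimums, the column, the denominator, the added value and leaving out a library. Named genes were the 8, the gene nearest to each in level, the 4 highest of each other group of the region and overlapping miRNA genes. The 8 genes, the lists and the tests were chosen with earlier results of these data known. Mature sequences came from RefSeq (GRCm38.p6). Python 3.11.15 (numpy 2.4.6, pandas 2.3.3, scipy 1.17.1, matplotlib 3.10.9) and R 4.3.3 (edgeR 4.0.16, DESeq2 1.42.0) were used.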

Additional observations from a re-analysis of the deposited data

Results flagged for a closer look

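Mir337 had 5 counts on the opposite strand in replicate 2, above the 3 counts that a count of 0 allows, in a column the comparisons did not use. All 5 were counted on Mir3544, which is annotated there, and in replicate 1 the same column held 0 counts. Groups of 2 libraries are too small for a search for outlying samples.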

How the results depend on the processing

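The summed share of the 8 genes, 6.46% of counted reads, was 2.52% of all reads of the libraries, 6.80% in the column without regard to strand and 1.38% without Mir127, each by the construction of that setting. Leaving out 1 library gave 6.34 to 6.58%. All 8 genes were detected at minimums of 1 and 10 CPM, and 7 at 100 CPM (Mir136 fell short). In the column without regard to strand 6 were detected, since Mir337 and Mir136, each overlapped by another miRNA gene, had 0 counts. The share of the region's level was 51.4%. It was 58.0% when the 8 region genes that share 20 bases with a hairpin elsewhere were left out. Those genes are all outside the Rtl1 antisense miRNAs, so leaving them out could only raise the share. Any of their reads that aligned to more than 1 place stay uncounted in this setting too. With 1 library left out the share was 50.3 to 52.5%. The share of Mir127 among the 8 was 77.3 to 79.8% with 1 library left out. The number of genes of the 8 that passed between the libraries was 5 under TMM, under DESeq2 size factors and at both other count minimums, and 4 in the column without regard to strand. Of 30 alternative log2 ratios of single genes 23 kept their direction and their side of the threshold. Those of Mir665 were 0.08 (adjusted p = 0.208 and 0.229 by the exact binomial test) and those of Mir431 −0.14 under TMM and DESeq2 size factors. Ratios that turned in sign had not passed in any setting. They were Mir136 at −0.058 under TMM and −0.061 under DESeq2 size factors, against 0.01, and Mir540 at 0.00019 in the column without regard to strand, against −0.02. No paired analysis was possible because the libraries form 1 group. Over all tested genes, the share of calls that were higher in replicate 2 was 55.3% and 47.7% under TMM. Without a filter on low counts 267 of 799 genes passed, and with 100 counts or more 240 of 311. The depth limits Mir136 most, with 156 and 130 counts in replicates 2 and 1.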
